A study of Mus musculus with 16 samples.

Results

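Platelets are small blood cells without a nucleus that are shed by megakaryocytes, and 9 genes known for their roles in these cells were followed in whole mouse lungs. Of the 9, the 3 genes Treml1, P2ry12 and Cd226 were selected on their measured difference after bleomycin in these same arrays, where they were among the genes that were lower, and the choice did not name the arm. The other 6, Pf4, Ppbp, Itga2b, Gp1bb, Gp9 and Gp6, were listed for their function. They too were listed with earlier results of these data known, so their tests may not be independent of that choice. All 9 were measured, out of 20863 named genes, each by the probe with the highest mean over the 16 arrays. The bleomycin values of Treml1, P2ry12 and Cd226 are therefore given as a description without a test. Their inhibitor differences draw on the same bleomycin arrays and are likewise given with intervals and no p-value.

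Lungs came from C57BL/6 mice aged 9 to 12 weeks, and their RNA was hybridised to 1-colour Agilent mouse arrays. In the group called Bleomycin+LNA-miR-199a-5p (5 arrays), a locked nucleic acid (LNA) oligonucleotide against the microRNA miR-199a-5p was given together with bleomycin, a DNA-damaging drug used to provoke lung fibrosis. Bleomycin+LNA-control (5 arrays) received a control LNA in its place, and PBS+LNA-miR-199a-5p (3 arrays) and PBS+LNA-control (3 arrays) received buffer in place of bleomycin. Every lung, the controls included, thus had an LNA in the airway: 5 mg/kg into the trachea on 3 occasions, 4 and 2 days ahead of bleomycin (1 unit/kg) or PBS and once more 4 days after it. The labels give neither the day of collection nor the sex, and they do not say whether blood was rinsed from the vessels. They number the replicates without stating that each was a separate animal, so the p-values measure the spread between these samples, which may be technical. Where single lungs are compared below, a lung stands for the sample on 1 array.

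Platelets stick to injured vessel walls through surface receptors and then empty granules that hold chemokines and clotting proteins. The glycoprotein Ib-IX-V complex binds von Willebrand factor, glycoprotein VI binds collagen, and the integrin made of the Itga2b and Itgb3 chains binds fibrinogen. The RNA found in platelets was made in the megakaryocyte, and in mice megakaryocytes are known to sit in lung vessels and release platelets there. Transcription factors of the GATA, ETS and RUNX families drive megakaryocyte genes.

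The inhibitor in this study was aimed at the following mature microRNA, shown with its seed (bases 2 to 8) in capitals. RefSeq places copies of it, on GRCm38.p6, at chr1:162217844-162217866 on the plus strand and at chr9:21496537-21496559 on the minus strand.
mmu-miR-199a-5p: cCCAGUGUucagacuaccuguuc

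Promoter sequence is shown for 4 of the 6 genes listed for function: both chemokine genes, 1 chain of the fibrinogen receptor and 1 chain of the von Willebrand factor receptor. All 6 were called in both main comparisons below, so the calls do not set these 4 apart from Gp9 and Gp6, which are not printed. The 250 bases before the start given by RefSeq (GRCm38.p6) are printed 5′ to 3′ on the gene's strand, with GATA words (AGATAA or AGATAG or TGATAA or TGATAG) and ETS words (GGAAGT or GGAAGC) on either strand in capitals.
Pf4, chr5:90772185-90772434, plus strand: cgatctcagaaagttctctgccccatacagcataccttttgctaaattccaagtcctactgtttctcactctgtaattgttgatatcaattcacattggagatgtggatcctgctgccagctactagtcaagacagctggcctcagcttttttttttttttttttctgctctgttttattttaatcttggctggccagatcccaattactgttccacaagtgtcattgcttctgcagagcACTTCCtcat
Ppbp, chr5:90768268-90768517, plus strand: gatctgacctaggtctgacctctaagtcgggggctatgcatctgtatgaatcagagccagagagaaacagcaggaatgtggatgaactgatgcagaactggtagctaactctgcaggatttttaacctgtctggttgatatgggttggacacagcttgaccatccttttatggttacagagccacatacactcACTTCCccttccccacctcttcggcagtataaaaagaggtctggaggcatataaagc
Itga2b, chr11:102469884-102470133, minus strand: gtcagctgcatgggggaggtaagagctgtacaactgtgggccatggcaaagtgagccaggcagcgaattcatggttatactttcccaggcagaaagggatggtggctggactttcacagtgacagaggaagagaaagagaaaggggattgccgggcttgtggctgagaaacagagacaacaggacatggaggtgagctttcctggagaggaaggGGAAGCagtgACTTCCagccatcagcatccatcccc
Gp1bb, chr16:18622404-18622653, minus strand: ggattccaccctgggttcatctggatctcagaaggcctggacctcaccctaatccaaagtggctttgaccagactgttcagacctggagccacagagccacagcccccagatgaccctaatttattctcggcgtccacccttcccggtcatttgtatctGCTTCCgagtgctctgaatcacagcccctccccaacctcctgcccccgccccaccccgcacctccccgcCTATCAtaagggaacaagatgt
RefSeq promoters were matched for 8 of the 9 genes. An ETS word stood within the 250 bases in 6 of the 8 (P2ry12, Pf4, Ppbp, Itga2b, Gp1bb and Gp9), against 37% of 32851 promoters of the same length. In Pf4 it ran from 10 to 5 bases before the start, and in Ppbp from 57 to 52. Itga2b held 2 of them, from 36 to 31 and from 26 to 21 bases before the start. A GATA word stood in 2 of the 8 (Gp1bb and Gp6), against 26.5% of all promoters, and both kinds stood together in Gp1bb alone, against 8.63%. The RUNX word TGTGGT was found in Gp9 only, against 14% of all promoters. None of these words overlapped another in these promoters, and a match describes letters, not a bound site.

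Values are log2 intensities, and a gene was called when its limma p-value, adjusted over all 20863 genes of the comparison, was under 0.05. RNA integrity numbers ran from 7 to 10, with means of 9 in Bleomycin+LNA-miR-199a-5p, 8.2 in Bleomycin+LNA-control and 8.33 in each PBS group. Replicates 1 and 4 of Bleomycin+LNA-control carried thymocyte transcripts: Rag1, a gene of developing lymphocytes, read 10.03 and 10.88 there, against 5.43 to 6.10 on the other 14 arrays. Calls of named genes in the main comparisons that were lost without these arrays are given beside the results below. That fit has fewer Bleomycin+LNA-control arrays, and the share of all genes called in it was not counted. A call lost there therefore cannot be told apart from the effect of fewer arrays.

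The 2 chemokine genes had the smallest p-values of the 6 genes, both after bleomycin with LNA-control and for the inhibitor in bleomycin lungs. Pf4, platelet factor 4 of the alpha granule, read 13.86, 13.73, 13.51, 13.84 and 14.09 in Bleomycin+LNA-miR-199a-5p lungs and 13.04, 13.13, 13.19, 13.06 and 13.35 in Bleomycin+LNA-control lungs. In PBS+LNA-miR-199a-5p lungs it read 14.29, 14.44 and 14.32, and in PBS+LNA-control lungs 14.41, 14.34 and 14.37. Every bleomycin lung thus lay below every PBS lung, and the lungs given the inhibitor with bleomycin lay between, above all 5 given LNA-control. With LNA-miR-199a-5p, Pf4 fell by 0.54 ± 0.11 on the log2 scale after bleomycin (1.46-fold lower, limma adjusted p = 0.00783). With LNA-control it fell by 1.22 ± 0.11 (2.33-fold lower, limma adjusted p = 1.2e-06). In whole lung, fewer cells of a type and less RNA per cell cannot be told apart. Within bleomycin lungs it was higher by 0.65 ± 0.09 with the inhibitor (1.57-fold, limma adjusted p = 0.000141).

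Ppbp encodes pro-platelet basic protein, whose cleaved forms attract neutrophils, and it lies beside Pf4 in the genome. It read 12.44, 12.09, 11.98, 11.71 and 12.50 in Bleomycin+LNA-miR-199a-5p lungs and 11.41, 11.67, 11.66, 11.38 and 11.51 in Bleomycin+LNA-control lungs. PBS+LNA-miR-199a-5p lungs had 13.24, 13.26 and 13.10, and PBS+LNA-control lungs had 13.21, 13.14 and 13.17. As for Pf4, bleomycin lungs with the inhibitor lay between those with LNA-control and the PBS lungs, and neither bleomycin group overlapped the PBS group with the same LNA. After bleomycin Ppbp fell by 1.05 ± 0.14 when the inhibitor was given (2.07-fold lower, limma adjusted p = 0.00217) and by 1.64 ± 0.14 when the control LNA was (3.13-fold lower, adjusted p = 1.12e-06). It was 0.62 ± 0.12 higher with the inhibitor in bleomycin lungs (1.53-fold, limma adjusted p = 0.00203).

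The receptor of von Willebrand factor was represented by Gp9 and Gp1bb, both small subunits of the glycoprotein Ib-IX-V complex. Gp9 read 10.85, 10.40, 10.38, 10.83 and 11.35 in Bleomycin+LNA-miR-199a-5p lungs and 9.92, 10.27, 10.21, 9.70 and 10.15 in Bleomycin+LNA-control lungs. In PBS+LNA-miR-199a-5p lungs it read 11.55, 11.50 and 11.70, and in PBS+LNA-control lungs 11.44, 11.71 and 11.58. Neither bleomycin group overlapped the other or a PBS group, those with LNA-control being lowest, while the PBS groups overlapped each other. After bleomycin Gp9 fell by 0.82 ± 0.18 under the inhibitor (1.77-fold lower, limma adjusted p = 0.0122) and by 1.53 ± 0.18 with LNA-control (2.88-fold lower, adjusted p = 3.05e-05), and it was 0.71 ± 0.16 higher with the inhibitor in bleomycin lungs (1.64-fold, adjusted p = 0.00406).

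Gp1bb read 7.28, 7.26, 7.42, 7.62 and 8.25 in Bleomycin+LNA-miR-199a-5p lungs and 7.07, 7.04, 7.34, 6.79 and 6.95 in Bleomycin+LNA-control lungs. PBS+LNA-miR-199a-5p lungs had 7.67, 7.68 and 7.98, and PBS+LNA-control lungs 7.99, 7.91 and 7.72. Here the bleomycin lungs with the inhibitor ran from the range of Bleomycin+LNA-control up past that of the PBS lungs. The bleomycin difference of Gp1bb was -0.21 ± 0.18 with LNA-miR-199a-5p (limma adjusted p = 0.47, 95% interval -0.60 to 0.18). With LNA-control it fell by 0.83 ± 0.18 (1.78-fold lower, limma adjusted p = 0.0041). In bleomycin lungs it was 0.53 ± 0.16 higher with the inhibitor (1.44-fold, limma adjusted p = 0.0235), and that call was lost without replicate 4 or 5 of Bleomycin+LNA-control (limma adjusted p = 0.0657 and 0.0538). With RNA integrity as a covariate the inhibitor difference was 0.30 (limma adjusted p = 0.143). Gp1bb has 3 probes, and its other probes ran from 5.13 to 5.65 and from 5.08 to 5.53, below the median of all spots (6.15), with differences of -0.19 and -0.10 after bleomycin with LNA-control. The other 8 genes have 1 probe each.

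Itga2b, the alpha chain of the fibrinogen receptor and an early marker of megakaryocytes, had 7.57, 7.28, 7.55, 7.87 and 8.65 in Bleomycin+LNA-miR-199a-5p lungs and 6.94, 7.49, 7.05, 6.89 and 7.26 in Bleomycin+LNA-control lungs. It had 7.99, 7.90 and 7.83 in PBS+LNA-miR-199a-5p lungs and 8.08, 8.06 and 7.55 in PBS+LNA-control lungs. Bleomycin lungs with LNA-control lay below all PBS lungs with LNA-control, whereas those with the inhibitor overlapped both. The bleomycin difference of Itga2b was -0.12 ± 0.23 with LNA-miR-199a-5p (limma adjusted p = 0.77, 95% interval -0.61 to 0.37). With LNA-control it fell by 0.77 ± 0.23 (1.71-fold lower, limma adjusted p = 0.0293). That call was lost without replicate 1 or 4 of Bleomycin+LNA-control (limma adjusted p = 0.0647 and 0.0652) and without replicate 1 or 2 of PBS+LNA-control (adjusted p = 0.12 and 0.121). It was higher by 0.66 ± 0.20 with the inhibitor in bleomycin lungs (1.58-fold, limma adjusted p = 0.0258). The inhibitor call was lost without replicate 4 of Bleomycin+LNA-miR-199a-5p (limma adjusted p = 0.0535) and without replicate 1 or 4 of Bleomycin+LNA-control (adjusted p = 0.0618 and 0.0673). With RNA integrity as a covariate it was lost too (0.55, limma adjusted p = 0.117).

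Gp6, the collagen receptor glycoprotein VI, read 7.79, 7.58, 7.38, 7.54 and 8.15 in Bleomycin+LNA-miR-199a-5p lungs and 6.95, 6.96, 7.43, 6.99 and 7.27 in Bleomycin+LNA-control lungs. In PBS+LNA-miR-199a-5p lungs it read 8.30, 8.53 and 8.58, and in PBS+LNA-control lungs 8.43, 8.34 and 8.23. All bleomycin lungs were below all PBS lungs, and replicate 3 of Bleomycin+LNA-control alone rose above the lowest lung given the inhibitor. After bleomycin Gp6 fell by 0.78 ± 0.15 under the inhibitor (1.72-fold lower, limma adjusted p = 0.00762) and by 1.21 ± 0.15 with LNA-control (2.31-fold lower, adjusted p = 4.51e-05). The inhibitor difference in bleomycin lungs was 0.57 ± 0.13 (1.48-fold, limma adjusted p = 0.00529).

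**Figure D1:**
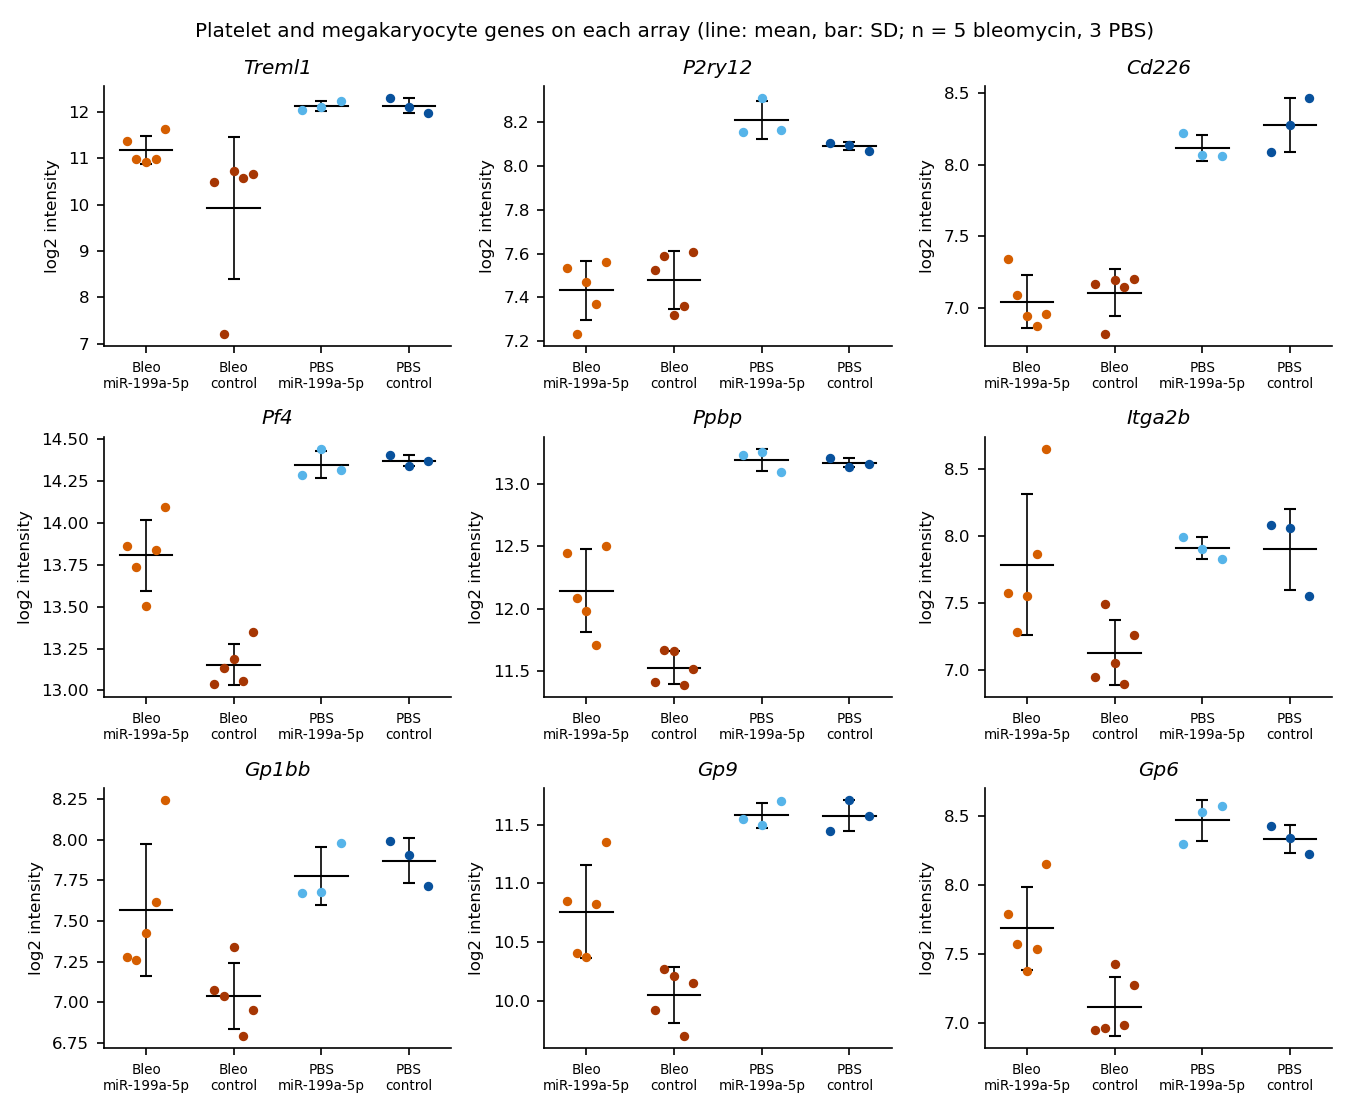
Log2 intensity of each of the 9 genes on every array (points), by group, with the group mean (line) and SD (bar), n = 5 for each bleomycin group and 3 for each PBS group. For Pf4, Ppbp and Gp9 bleomycin lungs with the inhibitor stand between those with LNA-control, which are lowest, and the PBS lungs, while P2ry12 and Cd226 show bleomycin groups that overlap each other, and 1 array of Bleomycin+LNA-control reads 7.20 for Treml1.

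Across the 6 genes listed for function, 4 were called lower after bleomycin with LNA-miR-199a-5p (6.04% of all genes were called lower there), with a median log2 fold change of -0.66, against 0.01 over all genes. In a limma fit of only those 2 groups, 1 of the 6 (Ppbp) was called, and Pf4, Gp9 and Gp6 had adjusted p-values of 0.0549, 0.0598 and 0.051. With LNA-control all 6 were called lower (7.90% of all genes), with a median of -1.21, against 0.00 over all genes. With the inhibitor the bleomycin arrays lay wholly below the PBS arrays for 4 of 6 genes (10.1% of all genes), and with LNA-control for 6 of 6 (11.4%). Without the 2 arrays with thymocyte transcripts, 5 of the 6 were called lower with LNA-control, the exception being Itga2b (-0.63, limma adjusted p = 0.159).

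The comparison of bleomycin lungs with and without the inhibitor gave calls for the 6 genes listed for function, of which 6 were higher (13.4% of all genes were called higher), with differences from 0.53 to 0.71. Their median was 0.64, against 0.01 over all genes. There was no overlap between arrays for 3 of the 6, Pf4, Ppbp and Gp9 (7.30% of all genes were higher without overlap). This comparison and the bleomycin effect with LNA-control share the 5 Bleomycin+LNA-control arrays, so a low reading on those arrays enters both. Without replicates 1 and 4 of that group, which carried thymocyte transcripts, only Pf4 (0.58, limma adjusted p = 0.00372) and Ppbp (0.53, adjusted p = 0.0301) were called of the 6. In that limma fit Gp9 was 0.55 (adjusted p = 0.0542), Gp6 0.47 (adjusted p = 0.0645), Gp1bb 0.46 (adjusted p = 0.136) and Itga2b 0.52 (adjusted p = 0.178). Without replicate 5 of Bleomycin+LNA-miR-199a-5p, which was the highest of its group for each of the 6 genes, all 6 were still called, with differences from 0.36 (Gp1bb) to 0.58 (Pf4). That replicate also had the highest RNA integrity number (10). With RNA integrity as a covariate Itga2b and Gp1bb lost the inhibitor call, as given above.

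**Figure D2:**
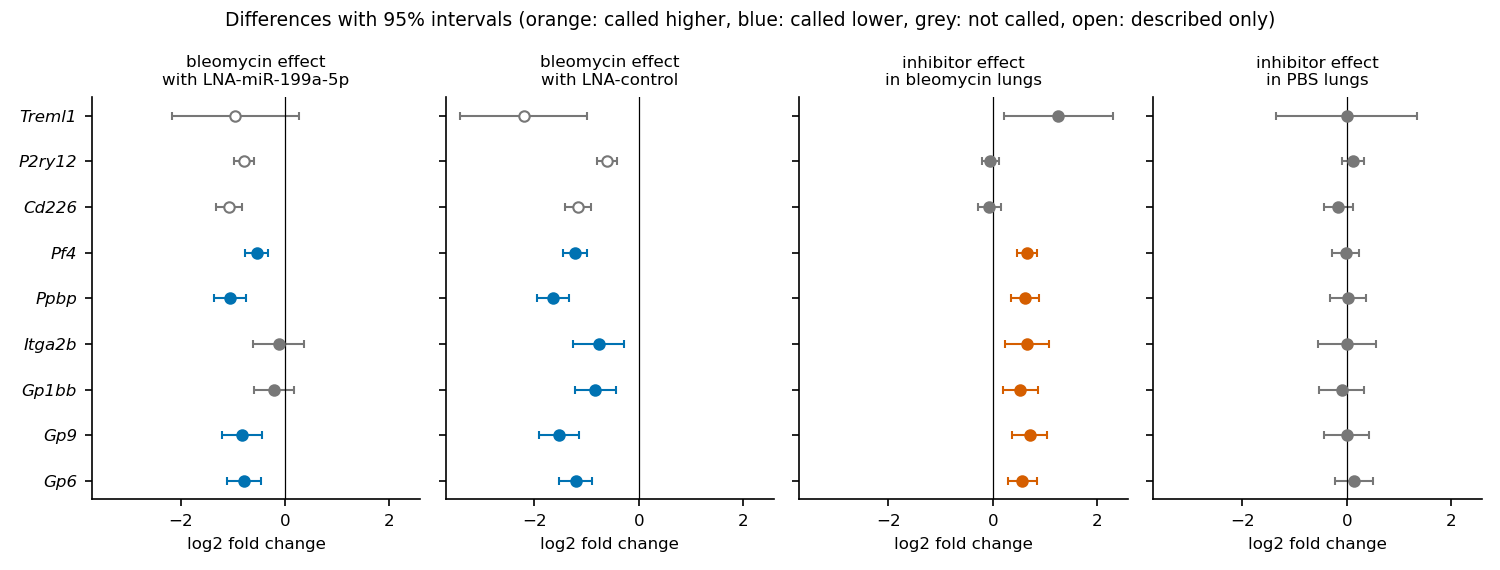
Log2 fold changes (points) with 95% intervals (bars) for the 9 genes in the bleomycin comparison with each LNA and in the inhibitor comparison in bleomycin and in PBS lungs. Open points are described only. The inhibitor points of Treml1, P2ry12 and Cd226 are drawn filled in grey but are likewise described only. The 6 genes listed for function lie left of 0 after bleomycin with LNA-control and right of 0 for the inhibitor in bleomycin lungs, P2ry12 and Cd226 lie left of 0 after bleomycin with both LNAs and near 0 for the inhibitor, and all lie near 0 for the inhibitor in PBS lungs.

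In PBS lungs the inhibitor had no called effect on the 6 genes: 0 of 6 passed in limma (0.0479% of all genes were called in either direction), and 0 of 6 had an unadjusted p under 0.05. Over all 9 genes the differences ran from -0.16 to 0.14. The interaction, which asks whether the bleomycin effect differed between the LNAs, was called for 1 of the 6 genes listed for function (3.07% of all genes were called higher). That gene was Pf4, whose fall was smaller by 0.68 ± 0.15 with the inhibitor (limma adjusted p = 0.0143). It was not called without the 2 arrays with thymocyte transcripts (0.61, limma adjusted p = 0.0638). The other 5 had interactions from 0.43 (Gp6) to 0.71 (Gp9) with limma adjusted p-values from 0.0869 to 0.255, so a different bleomycin effect under the 2 LNAs was not shown for them.

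Treml1 encodes a receptor related to the TREM family that is stored in platelet granules and displayed on activated platelets. It read 11.37, 11.00, 10.93, 10.98 and 11.63 in Bleomycin+LNA-miR-199a-5p lungs and 10.48, 7.20, 10.74, 10.56 and 10.66 in Bleomycin+LNA-control lungs. PBS+LNA-miR-199a-5p lungs had 12.04, 12.10 and 12.25, and PBS+LNA-control lungs 12.31, 12.11 and 11.98. Bleomycin lungs with the inhibitor lay above all those with LNA-control, and replicate 2 of Bleomycin+LNA-control stood apart, with a difference of -3.29 to the lowest of the other 4 arrays of its group. On that array 12 of 10431 genes with a mean above the median lay 1 or more below the lowest of the others, and the 2 furthest below were Grasp and Treml1. With all arrays the bleomycin difference was -0.95 ± 0.57 with the inhibitor and -2.20 ± 0.57 with LNA-control. Without that array the difference with LNA-control was -1.52 ± 0.15, from a group mean of 10.61 ± 0.11 (SD, n = 4). The inhibitor difference in bleomycin lungs was 1.26 ± 0.50 with all arrays (95% interval 0.21 to 2.31) and 0.57 ± 0.13 without that array.

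P2ry12, the ADP receptor that clopidogrel blocks, is also a known marker of some tissue macrophages. It had 7.53, 7.23, 7.47, 7.37 and 7.56 in Bleomycin+LNA-miR-199a-5p lungs and 7.53, 7.59, 7.32, 7.36 and 7.61 in Bleomycin+LNA-control lungs. It had 8.16, 8.31 and 8.17 in PBS+LNA-miR-199a-5p lungs and 8.11, 8.10 and 8.07 in PBS+LNA-control lungs. The bleomycin groups overlapped each other and lay below both PBS groups. Bleomycin differences were -0.78 ± 0.09 with the inhibitor and -0.61 ± 0.09 with LNA-control. The inhibitor difference in bleomycin lungs was -0.05 ± 0.08, with a 95% interval from -0.21 to 0.11. In PBS lungs the inhibitor arrays lay just above the control arrays (0.12 ± 0.10), a separation without overlap that 10.2% of all genes also showed.

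Cd226 encodes an adhesion receptor of platelets, natural killer cells and T cells that binds the proteins of Pvr and Nectin2. It read 7.34, 7.09, 6.95, 6.88 and 6.96 in Bleomycin+LNA-miR-199a-5p lungs and 7.17, 6.82, 7.20, 7.15 and 7.20 in Bleomycin+LNA-control lungs. PBS+LNA-miR-199a-5p lungs had 8.22, 8.07 and 8.06, and PBS+LNA-control lungs 8.09, 8.28 and 8.46. Again the bleomycin groups overlapped each other and lay below both PBS groups. The bleomycin differences were -1.07 ± 0.12 with the inhibitor and -1.17 ± 0.12 with LNA-control. The inhibitor difference in bleomycin lungs was -0.06 ± 0.10, with a 95% interval from -0.28 to 0.15.

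The arrays of a group differed among themselves in a shared way for the 6 genes listed for function. Their mean log2 intensity was 9.96, 9.72, 9.70, 9.90 and 10.50 in Bleomycin+LNA-miR-199a-5p lungs, 9.13 to 9.48 in Bleomycin+LNA-control lungs, 10.51 to 10.58 in PBS+LNA-miR-199a-5p lungs and 10.43 to 10.59 in PBS+LNA-control lungs. Replicate 5 of Bleomycin+LNA-miR-199a-5p thus stood 0.54 above the mean of its group. After each group mean was subtracted, the 15 pairs of these genes correlated at 0.32 to 0.82 over the 16 arrays (median 0.64), and 15 of 15 were above 0. Without that replicate 13 of 15 were above 0, and the range was -0.23 to 0.69 with a median of 0.38. Pairs that involve Treml1, P2ry12 or Cd226 had medians of 0.06, 0.31 and -0.03 with all arrays, and of -0.06, 0.10 and 0.10 without that replicate. These correlations share arrays and RNA, and are given as a description.

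**Figure D3:**
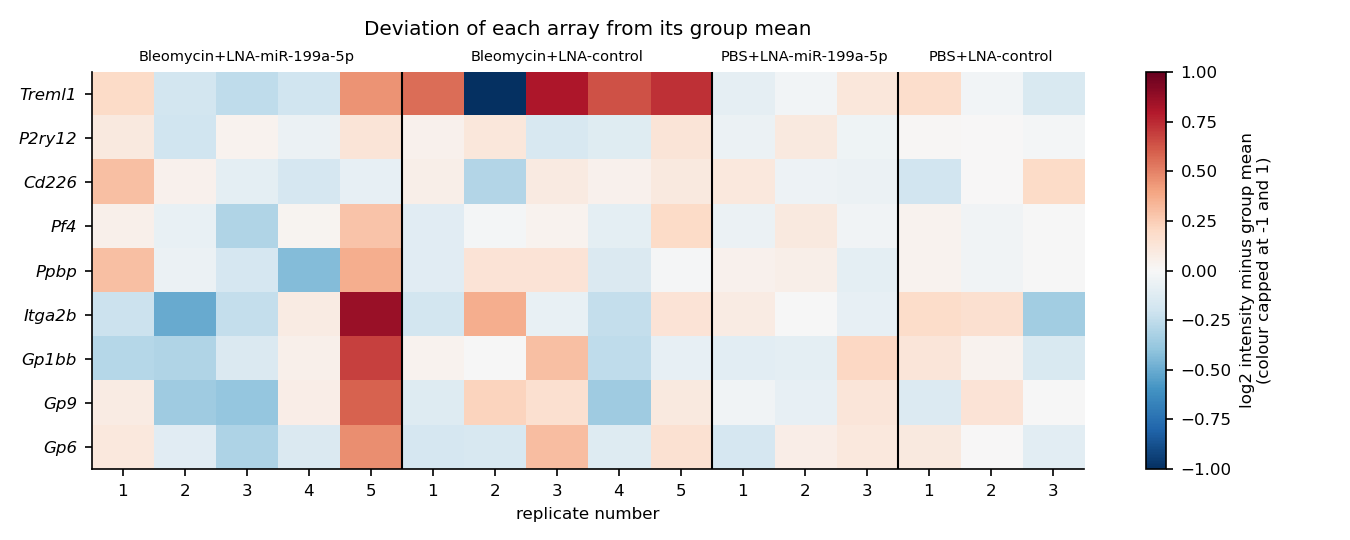
Colour map of the log2 intensity of each gene (rows) on each array (columns, by group and replicate number) minus the mean of its group, with colours capped at -1 and 1. Replicate 5 of Bleomycin+LNA-miR-199a-5p is above its group mean for the 6 genes listed for function, and replicate 2 of Bleomycin+LNA-control is far below it for Treml1.

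The genes whose deviations were most like the mean of the 6, among 10427 genes with a mean above the median that are not among the 9, were Rgs2, a regulator of G protein signalling (r = 0.94 over the 16 arrays), Itgb3 (0.91), Gchfr (0.89), Fech, the last enzyme of haem synthesis (0.89), Col6a1 (0.89), Alox12 (0.88), Snap47 (0.88), Nrgn (0.87), Nelfe (0.86) and Slc2a3, a glucose transporter (0.86). Without replicate 5 of Bleomycin+LNA-miR-199a-5p these correlations ran from 0.53 (Slc2a3) to 0.91 (Alox12). Itgb3, Alox12 and Nrgn are known platelet genes and stood in the lists described next. After bleomycin with LNA-control, Itgb3, Gchfr, Alox12, Nrgn and Slc2a3 differed by -1.52 to -0.78, and with the inhibitor in bleomycin lungs by 0.43 to 1.24. The others did otherwise. Col6a1 differed by 0.68 after bleomycin and by -0.18 with the inhibitor, and Rgs2, Fech, Snap47 and Nelfe were called in neither comparison.

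Further platelet and megakaryocyte genes were read from 4 lists with 65 measured members. After bleomycin with LNA-miR-199a-5p 11 of the 65 were called lower and 9 higher (6.04% and 7.31% of all genes), and with LNA-control 25 were called lower and 10 higher (7.90% and 9.60%). With the inhibitor in bleomycin lungs 28 were called higher and 9 lower (13.4% and 11.4% of all genes). Without the 2 arrays with thymocyte transcripts 16 and 7 were called, and the shares of all genes in that fit were not counted. The medians of the 65 in these 3 comparisons were -0.06, -0.15 and 0.19, against 0.01, 0.00 and 0.01 over all genes. The interaction was called for 11 above 0 and 5 below 0 (3.07% and 3.94% of all genes). In PBS lungs 0 of 65 were called for the inhibitor in limma (0.0479% of all genes were called in either direction). An unadjusted p under 0.05 was found for 8, and the share of all genes with such a p was not counted. Genes are named by rule, and Gp5, Fcer1g, Tbxas1, Runx1 and the red cell genes were chosen after their values were seen.

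Among 20 surface receptors, 7 fell and 2 rose after bleomycin with LNA-control, and 8 were higher and 2 lower with the inhibitor in bleomycin lungs (4 and 1 without the 2 arrays with thymocyte transcripts). Gp1ba, the chain of the Ib-IX-V complex that touches von Willebrand factor, fell by 1.06 ± 0.13 after bleomycin (limma adjusted p = 2.81e-05) and was 0.67 ± 0.11 higher with the inhibitor (adjusted p = 0.000463). Gp5, which completes the complex, fell by 1.08 ± 0.18 and was 0.70 ± 0.15 higher, so all 4 chains of the complex were called in both comparisons. Without the 2 arrays with thymocyte transcripts, Gp1ba and Gp5 kept both calls in limma (Gp5 with an inhibitor adjusted p of 0.0452), and Gp9 and Gp1bb lost the inhibitor call. Itgb3, the partner of Itga2b, fell by 0.78 ± 0.11 and was 0.55 ± 0.10 higher, with group means of 12.35 in Bleomycin+LNA-miR-199a-5p, 11.79 in Bleomycin+LNA-control, 12.57 in PBS+LNA-miR-199a-5p and 12.58 in PBS+LNA-control lungs. Clec1b, the podoplanin receptor of platelets, fell by 1.30 ± 0.12 and was 0.47 ± 0.11 higher. Mpig6b, an inhibitory receptor of megakaryocytes, fell by 1.20 ± 0.11 and was 0.41 ± 0.10 higher. Their inhibitor calls were lost without those 2 arrays (Clec1b 0.35, limma adjusted p = 0.0548, and Mpig6b 0.34, adjusted p = 0.0701).

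Other receptors did otherwise. Selp, the P-selectin of platelets and endothelium, did not pass after bleomycin with LNA-control (0.16 ± 0.12, limma adjusted p = 0.422) but was 0.46 ± 0.10 higher with the inhibitor (adjusted p = 0.00363). Cd84, which macrophages also carry, rose by 1.07 ± 0.08 after bleomycin and was 1.16 ± 0.07 lower with the inhibitor (limma adjusted p = 3.79e-08). Fcer1g, the signalling chain on which Gp6 depends and which macrophages also use, rose by 0.60 ± 0.09. The widely expressed Itga6 and Cd9 passed in neither comparison (-0.19 ± 0.10 and -0.07 ± 0.11 after bleomycin with LNA-control).

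Of 15 genes of granule cargo and secretion, 5 fell and 3 rose after bleomycin with LNA-control, and 6 were higher and 4 lower with the inhibitor. When the 2 arrays with thymocyte transcripts were left out, 3 fell and 3 rose, and 1 was higher and 3 lower. The clotting factor gene F5 fell by 1.00 ± 0.19 (limma adjusted p = 0.00127) and was 0.75 ± 0.16 higher with the inhibitor (adjusted p = 0.00316). Nrgn fell by 1.52 ± 0.32 and was 1.24 ± 0.28 higher, the second call being lost without those arrays (limma adjusted p = 0.0565). Rab27b, a regulator of granule secretion, fell by 0.50 ± 0.10, and its inhibitor difference of 0.16 ± 0.09 did not pass (limma adjusted p = 0.206). Thbs1, Clu and Serpine2, which many lung cells express, were the 3 that rose, by 1.11 ± 0.26, 0.83 ± 0.09 and 0.87 ± 0.16, and they were lower with the inhibitor by 1.35 ± 0.22, 0.62 ± 0.08 and 0.87 ± 0.14.

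The list of enzymes, cytoskeleton and signalling held 19 genes, of which 7 fell and 4 rose after bleomycin with LNA-control, and 7 were higher and 2 lower with the inhibitor. Without the same 2 arrays, 6 fell and 2 rose, and 5 were higher and 2 lower. Tubb1, the tubulin of the platelet's marginal band, fell by 1.13 ± 0.10 (limma adjusted p = 8.65e-07) and was 0.42 ± 0.08 higher with the inhibitor (adjusted p = 0.00186). Alox12, the platelet lipoxygenase, fell by 1.35 ± 0.13 and was 0.73 ± 0.12 higher. Rasgrp2, which activates the platelet integrin through Rap1, fell by 0.66 ± 0.07 and was 0.35 ± 0.06 higher. Gng11, Myl9 and Gucy1a1 fell by 0.67 ± 0.09, 0.44 ± 0.11 and 0.68 ± 0.07. The call of Myl9 was lost without those arrays (limma adjusted p = 0.0687) and without replicate 1 of PBS+LNA-control (adjusted p = 0.0521). The cyclooxygenase gene Ptgs1 and the thromboxane synthase gene Tbxas1, both also known in macrophages, rose by 0.70 ± 0.10 and 0.97 ± 0.14 and were lower with the inhibitor by 0.78 ± 0.09 and 0.56 ± 0.12.

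Of 11 transcription factors of the megakaryocyte, 6 fell and 1 rose after bleomycin with LNA-control, and 7 were higher and 1 lower with the inhibitor. Without both of these arrays 6 fell and 0 rose, and 6 were higher and 1 lower by limma. Gata1, required for megakaryocytes and red cells, averaged 8.14 ± 0.21 in Bleomycin+LNA-miR-199a-5p lungs and 7.45 ± 0.09 in Bleomycin+LNA-control lungs (SD, n = 5 each). It averaged 8.36 ± 0.12 in PBS+LNA-miR-199a-5p lungs and 8.28 ± 0.10 in PBS+LNA-control lungs (SD, n = 3 each). Gata1 fell by 0.83 ± 0.11 with LNA-control (limma adjusted p = 5.87e-05) and was 0.69 ± 0.09 higher with the inhibitor (adjusted p = 9.65e-05). Gata2, Nfe2 and Meis1 fell by 0.58 ± 0.11, 0.71 ± 0.09 and 0.82 ± 0.10 and were higher with the inhibitor by 0.76 ± 0.09, 0.63 ± 0.08 and 0.54 ± 0.08. Mef2c fell by 0.43 ± 0.08, and its inhibitor difference was 0.05 ± 0.07 (limma adjusted p = 0.627). Its PBS+LNA-control lungs stood apart with a mean of 8.39, against 8.01 in Bleomycin+LNA-miR-199a-5p, 7.96 in Bleomycin+LNA-control and 7.99 in PBS+LNA-miR-199a-5p lungs. The inhibitor difference of Mef2c in PBS lungs was -0.41 ± 0.09 (limma adjusted p = 0.166), and its bleomycin difference with LNA-miR-199a-5p was 0.02 ± 0.08. Runx1 rose by 0.40 ± 0.12 after bleomycin and was 0.57 ± 0.10 lower with the inhibitor, the first call being lost without those arrays (limma adjusted p = 0.085). Mast cells also use Gata1 and Gata2: the mean log2 level of 10 mast cell and basophil markers ran from 8.10 to 8.43 in Bleomycin+LNA-miR-199a-5p lungs and from 7.74 to 7.87 in Bleomycin+LNA-control lungs. It ran from 7.82 to 8.31 in PBS+LNA-miR-199a-5p lungs and from 7.91 to 7.99 in PBS+LNA-control lungs. The log2 of the summed linear intensities of these markers overlapped between all groups. It ran from 13.86 to 14.23, 13.87 to 14.11, 13.83 to 14.18 and 13.97 to 14.08 in the same order of groups. With the inhibitor in bleomycin lungs 6 of the 10 were called higher and 1 lower (13.4% and 11.4% of all genes). The part of those cells in the result was not tested.

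**Figure D4:**
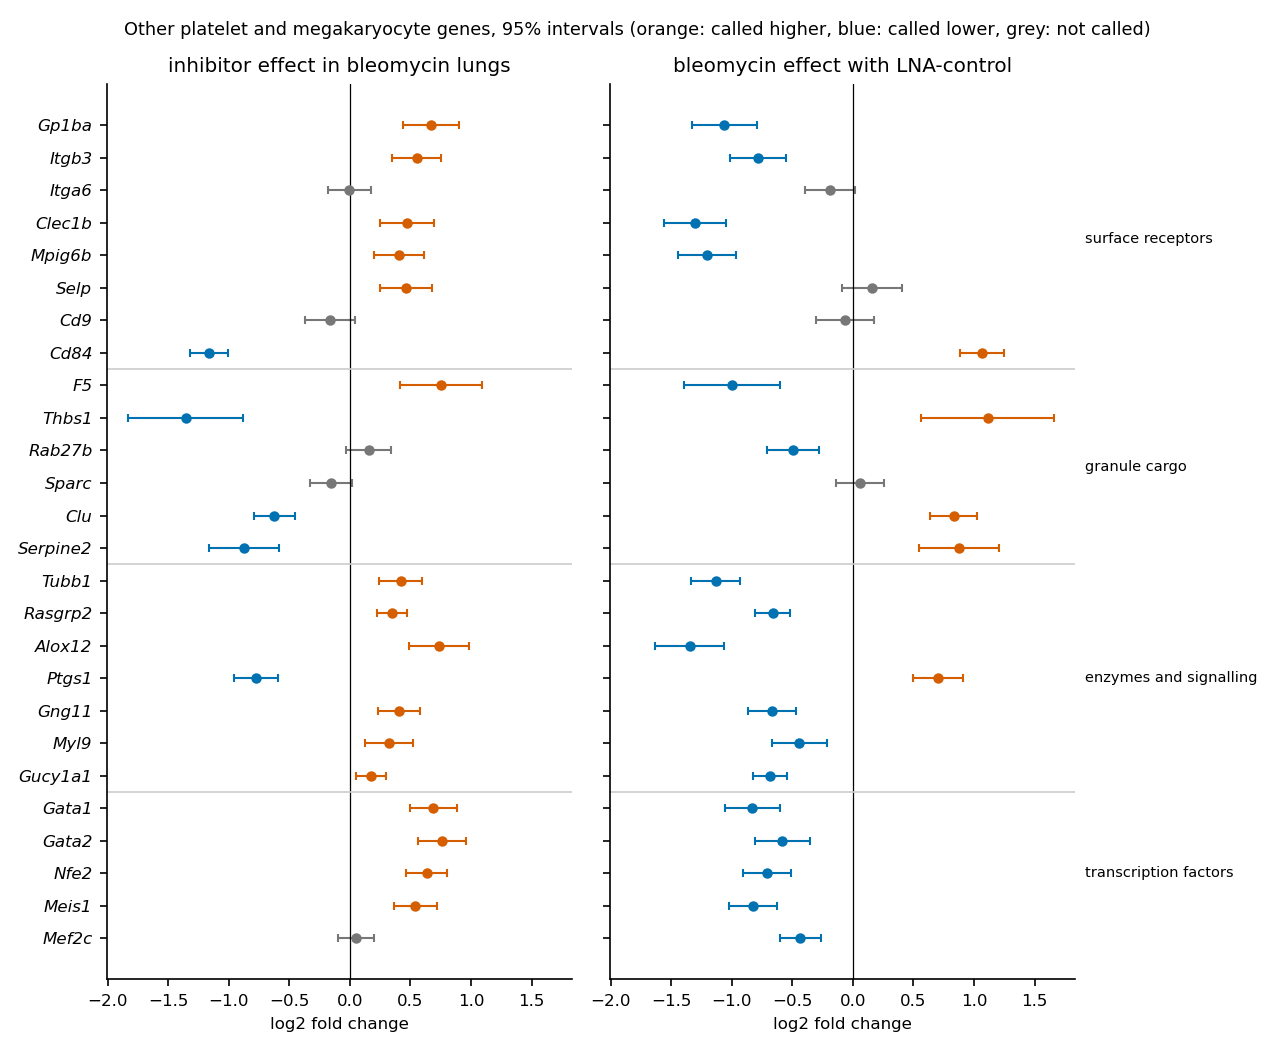
Log2 fold changes (points) with 95% intervals (bars) of the named genes of the 4 further platelet lists, for the inhibitor in bleomycin lungs and for bleomycin with LNA-control. Receptor, cytoskeletal and transcription factor genes such as Gp1ba, Clec1b, Tubb1 and Gata1 lie right of 0 for the inhibitor and left of 0 after bleomycin, and Cd84, Thbs1, Clu, Serpine2 and Ptgs1 lie the other way.

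Genes that meet the 9 by position or by binding did not share 1 pattern. Treml1 lies beside Trem2, a receptor of macrophages, which rose by 3.47 ± 0.10 after bleomycin with LNA-control and was 2.31 ± 0.09 lower with the inhibitor (limma adjusted p = 2.64e-10). In the same cluster Trem3 and Treml2 fell by 0.81 ± 0.11 and 0.72 ± 0.11 and were 0.76 ± 0.10 and 0.46 ± 0.09 higher. P2ry12 lies inside the gene Med12l, between P2ry13, which rose by 0.55 ± 0.13 after bleomycin, and Igsf10, which rose by 0.47 ± 0.10 and was 0.66 ± 0.08 lower with the inhibitor. Next to Ppbp, the chemokine gene Cxcl5 did not pass after bleomycin (0.30 ± 0.49, limma adjusted p = 0.752) and was 1.28 ± 0.42 higher with the inhibitor (adjusted p = 0.0369). The Cxcl5 call was lost in 7 of 16 fits that left out 1 array (limma adjusted p up to 0.0921) and without the 2 arrays with thymocyte transcripts (adjusted p = 0.0804). Of the ligands of Cd226, Pvr was 0.53 ± 0.12 lower with the inhibitor, and not called without those 2 arrays (limma adjusted p = 0.0532). Nectin2 was 0.32 ± 0.11 lower, a call lost in 6 of 16 fits that left out 1 array and without those 2 arrays (limma adjusted p = 0.129). Of the chemokine receptors, the neutrophil receptor Cxcr2 fell by 0.65 ± 0.11 and Cxcr3 rose by 0.43 ± 0.12 after bleomycin with LNA-control. The call of Cxcr3 was lost without those 2 arrays (limma adjusted p = 0.0599) and without replicate 1 of PBS+LNA-control (adjusted p = 0.0871).

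Markers of other blood and vessel cells moved in the same comparisons as the platelet genes. Over all genes 7.90% were called lower and 9.60% higher after bleomycin with LNA-control, and 13.4% higher and 11.4% lower with the inhibitor in bleomycin lungs. Of 11 natural killer cell markers, 8 fell after bleomycin with LNA-control and 9 were higher with the inhibitor, and their summed level (log2 of the sum of linear intensities) was 13.63 to 13.98 in Bleomycin+LNA-miR-199a-5p, 12.88 to 13.46 in Bleomycin+LNA-control, 13.46 to 13.67 in PBS+LNA-miR-199a-5p and 13.77 to 14.05 in PBS+LNA-control lungs. Cd226, which these cells also make, had the inhibitor difference of -0.06 given above. Of 11 neutrophil markers, 7 fell and 1 rose, and 6 were higher with the inhibitor, with summed levels of 16.99 to 17.22, 16.66 to 16.89, 17.25 to 17.48 and 17.27 to 17.39 in the same order of groups. Of 12 endothelial markers, 8 fell and 9 were higher with the inhibitor, with summed levels of 18.04 to 18.14, 17.58 to 17.81, 17.92 to 18.15 and 18.05 to 18.09. Of 12 macrophage markers, 10 rose, and 10 were lower and 1 higher with the inhibitor, with summed levels of 16.08 to 16.26, 16.66 to 16.82, 15.77 to 15.99 and 15.84 to 15.95. Without the 2 arrays with thymocyte transcripts 5 natural killer cell, 7 neutrophil and 7 endothelial markers fell and 7, 6 and 8 were higher with the inhibitor, and the macrophage counts were 10 and 10. In each of these lists every marker was above the median of all spots on at least 1 array. The part of these cells in the platelet results was not tested.

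Red cell markers bear on blood left in the lung. Of 10, 0 were called after bleomycin with LNA-control in limma (1 had an unadjusted p under 0.05). With the inhibitor 3 were higher (13.4% of all genes were), namely Alas2 (0.65 ± 0.18), Hbb-bs (0.55 ± 0.17) and Slc4a1 (0.75 ± 0.15). Of the 10, 1 (Slc4a1) was still called higher without the 2 arrays with thymocyte transcripts. Epb42, Klf1 and Rhag lay below the median of all spots on every array. The summed level of the 10 was 19.49 to 19.76 in Bleomycin+LNA-miR-199a-5p, 19.41 to 19.60 in Bleomycin+LNA-control, 19.38 to 19.57 in PBS+LNA-miR-199a-5p and 19.42 to 19.52 in PBS+LNA-control lungs, and it is set mainly by globin probes near the top of the scale (Hba-a1 averaged 18.13). Their mean log2 level, in which each gene counts equally, was 11.79 to 12.28, 11.55 to 11.77, 11.76 to 11.97 and 11.66 to 11.83 in that order. By this measure the bleomycin groups did not overlap, those with the inhibitor being higher. The part of blood left in the lung in the platelet results was not tested. For 13 defining platelet and megakaryocyte genes, among them 8 of the 9 described here, the summed levels were 14.61 to 15.22, 14.13 to 14.36, 15.45 to 15.54 and 15.46 to 15.55 in the same order of groups. These 13 include Treml1 and P2ry12, selected for being lower after bleomycin, so the sums are a description. For the 65 genes of the 4 further platelet lists the summed levels overlapped: 19.00 to 19.15, 19.03 to 19.17, 18.98 to 19.11 and 19.07 to 19.17. Their mean log2 levels were 10.53 to 10.77, 10.39 to 10.51, 10.58 to 10.64 and 10.61 to 10.69.

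**Figure D5:**
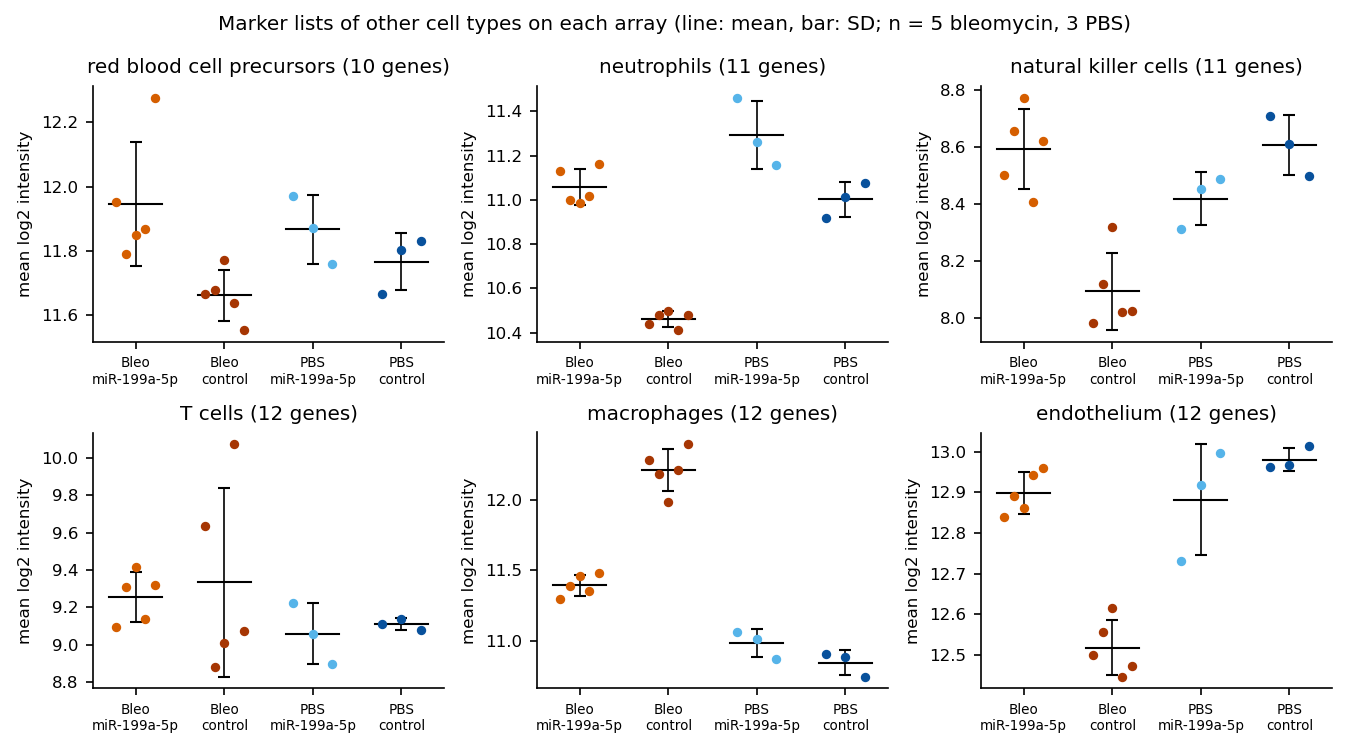
Mean log2 intensity of marker lists of 6 other cell types on every array (points), by group, with the group mean (line) and SD (bar). Neutrophil, natural killer and endothelial markers are lowest in Bleomycin+LNA-control lungs, macrophage markers are highest there, and T cell markers are high on 2 of its 5 arrays.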

How the data were processed

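Whole-lung RNA was measured on 16 Agilent arrays of 1 colour and 62976 spots. The deposited table holds log2 intensities that the authors quantile normalised with limma, per the submitters' processing notes and the values themselves (sorted arrays differed by at most 0.0974). The limma version of the authors, the background correction and the spot filters are not given in the sources used here.

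Probes were named from GEO's platform annotation and updated to RefSeq symbols by accession (29050 matched). The 31465 probes with 1 gene name gave 20863 genes, each read from its probe with the highest mean (6086 genes had several), and the 31511 spots without a name were left out. Arrays of a group correlated at 0.989 or more, and no pair was a duplicate (smallest median difference 0.106).

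All 16 arrays entered 1 linear model with a mean for each group (limma 3.58.1 under R 4.3.3, errors moderated by eBayes). The 5 contrasts were tested two-sided, each with Benjamini-Hochberg adjustment over all genes, and called at an adjusted p under 0.05. Errors after ± are standard errors for differences and SD for group means. With arrays in place of read counts, precision is set by how many arrays each group has. The fit was tested on simulated data. Sequences and gene neighbours were read from RefSeq tables with Python 3.11.15.

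The 9 genes and all lists were chosen with earlier results of these data known. Besides the 9, genes were named by rule: of each platelet list up to 4 with the smallest p among those called in either of 2 comparisons (inhibitor in bleomycin lungs, bleomycin with LNA-control), plus the 2 with the highest mean, and the 10 (or, for single genes, 5) most alike within groups. Exceptions are marked in the text.

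Replicate numbers come from the labels. Deviations of same-numbered arrays correlated at 0.538, 0.204 and 0.619 in the PBS groups and at -0.589 to 0.433 in the other pairs of groups. These ranges overlap: replicate 2 of the groups given LNA-miR-199a-5p had 0.433, above the 0.204 of replicate 2 in the PBS groups. The check therefore cannot decide whether the numbers pair any arrays.

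Alternatives were leaving out each array, the replicate number as a block, a fit of only the compared groups, the mean of all probes, filters on dim genes, another eBayes prior, array weights, median centring, RNA integrity as a covariate, and leaving out the 2 arrays with thymocyte transcripts.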

Additional observations from a re-analysis of the deposited data

Results flagged for a closer look

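Within the 2 groups of 5 arrays, 96 sets of values over 48 genes were checked for a lone array far from the rest (gap over range above 0.71), which chance alone gives in about 1 in 20 sets, and 6 were found. In Bleomycin+LNA-control, replicate 2 read 7.20 for Treml1 and 6.82 for Cd226, and replicate 3 read 10.6 for Rab27b, 9.41 for Nfe2 and 6.86 for Trem3. In Bleomycin+LNA-miR-199a-5p, replicate 5 read 8.34 for Gp1ba.

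The bleomycin effect differed between the LNAs, as tested by the interaction in limma, for 20 of 45 genes (3.07% of all genes were called higher and 3.94% lower), with limma adjusted p-values from 2.85e-08 (Trem2) to 0.0422 (Selp). Among the 6 genes listed for function this was Pf4 at 0.68 (adjusted p = 0.0143 in limma). Among receptors and granule genes, the interaction was 0.56 for Itgb3, 0.59 for Selp, -1.14 for Cd84, -0.64 for Clu, -0.84 for Serpine2 and -1.45 for Thbs1. Among enzymes and cytoskeletal genes it was 0.90 for Alox12, 0.35 for Rasgrp2, 0.70 for Tubb1 and -0.83 for Ptgs1. Most of the 45 were named for small p-values in comparisons that share arrays with the interaction, so this share is not independent of the choice, and 16 of 65 genes of the 4 whole platelet lists were called. Among transcription factors the interaction was 0.86 for Gata2, 0.81 for Nfe2, 0.61 for Gata1, 0.63 for Meis1 and 0.46 for Mef2c. The interactions of Mef2c and Tubb1 include inhibitor differences in PBS lungs of -0.41 and -0.28, neither of them called. Near the 9 genes it was -2.79 for Trem2, 0.94 for Trem3, -0.83 for Igsf10 and -0.65 for P2ry14. A positive value means that the bleomycin difference was higher with LNA-miR-199a-5p than with LNA-control, and 8 of the 20 were negative.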

How the results depend on the processing

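Of the values recomputed under the alternatives, 2613 kept direction and side of the threshold, 78 lost the call, 6 gained it, 8 counts or values moved and 3 turned sign. The sign turned for differences near 0: Itga2b after bleomycin with the inhibitor when replicate 2 of Bleomycin+LNA-miR-199a-5p was left out (0.00334, range -0.34 to 0.00334 over single arrays left out), P2ry12 for the inhibitor in bleomycin lungs without the same array (0.00197, range -0.0889 to 0.00197), and Cd226 there with RNA integrity as a covariate (0.0109). Fitting only the compared groups left 1 of 6 genes called lower after bleomycin with LNA-miR-199a-5p, and the cause was not tested. Among genes with a mean above the median, fewer of the 6 genes listed for function were tested. There 3 of 3 (Pf4, Ppbp and Gp9) were called after bleomycin with LNA-control, and the same 3 for the inhibitor in bleomycin lungs. Array weights raised the interaction count to 4 of 6 (Pf4, Ppbp, Gp1bb and Gp9), and the cause was not tested. Without the 2 arrays with thymocyte transcripts, so with fewer samples, 2 of the 6 were called for the inhibitor in bleomycin lungs and 0 of 6 in the interaction by limma. Single arrays left out gave an interaction count of 1 to 2 (2 without replicate 4 of Bleomycin+LNA-miR-199a-5p, which adds Ppbp). They left at least 4 of the 6 genes listed for function past the threshold for the inhibitor in bleomycin lungs. With RNA integrity as a covariate 4 passed, without Itga2b and Gp1bb. With the replicate number as a block the counts were 4, 6, 6, 0 and 1, which changed no count. Array medians differed by -0.06 to 0.04, and centring on them changed no count. Signals near background limit Gp1bb, whose other 2 probes lie below the median of all spots. The probes read for Gp1bb (mean 7.50), Cd226 (7.50), Itga2b (7.62), P2ry12 (7.72) and Gp6 (7.78) all averaged below the median gene mean of 8.47.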

Other observations

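Cells that share genes or lineage with platelets gave the following values. Over all genes 13.4% were called higher and 11.4% lower with the inhibitor in bleomycin lungs, and 7.90% lower and 9.60% higher after bleomycin with LNA-control. Of 8 bone marrow progenitor markers, 3 were called higher and 1 lower with the inhibitor in bleomycin lungs, and 2 lower and 1 higher after bleomycin with LNA-control. Without the 2 arrays with thymocyte transcripts these counts were 3, 0, 0 and 1 by limma. Of 7 markers of macrophages of the kind that carry P2ry12 and Cx3cr1, 4 rose after bleomycin with LNA-control and 2 were lower with the inhibitor, while P2ry12 itself was -0.61 after bleomycin. Of 12 T cell markers 1 was called higher in each of these comparisons, no more than the shares of all genes given above. Without the 2 arrays with thymocyte transcripts 2 were higher with the inhibitor and 0 changed after bleomycin by limma. Of 8 thymocyte markers 0 were called in limma in either comparison (2 and 3 had an unadjusted p under 0.05), although their mean log2 level reached 9.38 in Bleomycin+LNA-control, against 6.80 to 7.09 in Bleomycin+LNA-miR-199a-5p lungs.

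The genes most like Treml1 within groups over the 16 arrays were Grasp (r = 0.98), Csrp1 (0.95), Cep57 (0.93), 9430038I01Rik (0.92) and Dnase1l1 (0.91). Without replicate 2 of Bleomycin+LNA-control the same correlations were 0.45, 0.14, 0.50, 0.53 and 0.34, so they rest on that array. Those most like P2ry12 were Rnmt (0.86), Ism1 (0.84), Dpy19l1 (0.83), Spock2 (0.80) and Ftsj3 (0.79). Those most like Cd226 were Hoxa7 (0.91), Tbx22 (0.87), Maml3 (0.87), Ddx6 (0.87) and Chchd7 (0.86). They are descriptions, picked as the highest of 10427 genes.

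Ncr1, a natural killer cell receptor whose gene lies beside Gp6, fell by 0.53 after bleomycin with LNA-control and was 0.63 higher with the inhibitor in bleomycin lungs. Nectin3, a nectin family gene, fell by 0.39 ± 0.13 after bleomycin with LNA-control (limma adjusted p = 0.0426), a call lost in 9 of 16 fits that left out 1 array, with the replicate block (adjusted p = 0.16) and without the 2 arrays with thymocyte transcripts (adjusted p = 0.198). Sparc, an abundant matrix gene also held in granules, was called in neither comparison (0.06 ± 0.09 after bleomycin with LNA-control).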
